A study of Homo sapiens with 6 samples.

Results

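SWI/SNF, CHD, MLL and related chromatin regulators were followed as a set of 40 genes listed by symbol, among the 53719 rows of a gene count table from H9 cells. H9 is an established human embryonic stem cell line. All 6 libraries came from H9 cells kept in RSeT, a commercial culture medium used to hold naive-like cells, and taken 48 h after transfection with a gapmer, an antisense oligonucleotide that directs RNase H to its target RNA. The knockdown group received a gapmer against alpha satellite RNA, the transcript of the centromeric repeats (3 libraries, titled Sense3a, Sense3b and Sense3c), and the control group a control gapmer (3 libraries). The labels abbreviate the target as ALR, a string that RefSeq also lists as a synonym of the member KMT2D; the series title makes clear that the repeat RNA is meant. The level of that RNA was not analysed here, so the depth of the knockdown is not known from these values. The libraries are from a single cell line, and the labels do not say whether they came from separate cultures, so each p-value measures only the spread between these libraries.

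These proteins set how tightly DNA is held in nucleosomes. SWI/SNF complexes use an ATPase motor, SMARCA4 or SMARCA2, to slide or eject nucleosomes, and they come as BAF, PBAF and ncBAF forms that share a core and differ in their targeting subunits. CHD proteins and INO80 are ATPase remodellers of other families, with CHD3 and CHD4 serving as alternative motors of the NuRD deacetylase complex. KMT2 (MLL) enzymes methylate histone H3 at the lysine marked in active promoters and enhancers, NSD1 and SETD2 methylate the lysine marked in transcribed gene bodies, and CREBBP and EP300 acetylate histones at enhancers. Embryonic stem cells are known for a SWI/SNF complex built around SMARCA4, SMARCC1 and ARID1A.

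Of the 40 genes, 35 had a row under their own symbol and 3 under an older symbol that RefSeq gives to a single gene (MLL for KMT2A, MLL3 for KMT2C, MLL5 for KMT2E). The remaining pair, KMT2B and KMT2D, could not be told apart, because the table's MLL2 row carries a symbol that RefSeq lists for both; that row is described on its own. SMARCC2, a core subunit closely related to SMARCC1, was listed at 0 in all 6 libraries. Other genes listed at 0 included the pluripotency factor SOX2 and the chromatin genes BICRA, PAGR1 and SETMAR, so a 0 in this table cannot be read as absence of the RNA. The other 37 members passed the filter on low counts and were tested together with all 19721 genes that passed it.

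Total counts were 25087629 to 36576752 per library, and the 38 matched members held 179623 to 269925 of them. Knockdown library a stood apart, with counts in 29678 rows against 25898 to 26788 in the other 5 and a first principal component (36.2% of the variance) of -53.4 against 4.82 to 15.4. Of 10 pluripotency markers, 9 had a mean above 1 CPM (the usual depth-scaled count, here on TMM-adjusted library sizes), with a summed level of 5703 to 6469 CPM in knockdown and 5724 to 5890 CPM in control libraries. The 8 markers of naive pluripotency summed to 67.6 to 74.9 CPM in knockdown and 67.8 to 72.2 CPM in control libraries, and 6 of them exceeded 1 CPM; KHDC1L was at 0. Those of primed pluripotency summed to 235 to 262 and 237 to 248 CPM, of neuroectoderm to 354 to 402 and 302 to 356 CPM, of mesoderm to 18.5 to 19.9 and 16.9 to 18.9 CPM, and of fibroblasts to 86.0 to 95.1 and 90.1 to 104 CPM, in knockdown and control libraries respectively. Markers of trophectoderm or amnion (2.25 to 3.24 CPM over all libraries) and of endoderm (1.79 to 3.42 CPM) were at or below a few CPM in sum, and no marker passed the adjusted threshold. A mean above 1 CPM was reached by 5 of 7 primed and 2 of 4 neuroectoderm markers. So it was by 3 of 5 mesoderm and 2 of 6 fibroblast markers. The part of the neuroectoderm markers in the results below was not tested.

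The promoters of the ATPase genes are shown because SMARCA2 was the member past the adjusted threshold and SMARCA4 is its alternative in the complex. Each sequence runs 5′ to 3′ on the gene's strand, from 250 bases before to 50 after the RefSeq start in GRCh38.p14. Capitals mark matches, on either strand, to the GC box GGGCGG, the CCAAT box CCAAT, the NRF1 and YY1 cores, the ETS core CCGGAAG, the cAMP response element TGACGTCA or the E-box CACGTG. A match is a description and not a binding site.
SMARCA2, chr9:2015097-2015396, plus strand: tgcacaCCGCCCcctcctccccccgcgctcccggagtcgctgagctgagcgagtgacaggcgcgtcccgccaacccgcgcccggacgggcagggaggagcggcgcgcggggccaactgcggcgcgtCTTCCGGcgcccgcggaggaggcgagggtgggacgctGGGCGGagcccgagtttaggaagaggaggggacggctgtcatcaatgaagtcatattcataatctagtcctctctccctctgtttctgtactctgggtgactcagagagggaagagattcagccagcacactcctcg
SMARCA4, chr19:10960780-10961079, plus strand: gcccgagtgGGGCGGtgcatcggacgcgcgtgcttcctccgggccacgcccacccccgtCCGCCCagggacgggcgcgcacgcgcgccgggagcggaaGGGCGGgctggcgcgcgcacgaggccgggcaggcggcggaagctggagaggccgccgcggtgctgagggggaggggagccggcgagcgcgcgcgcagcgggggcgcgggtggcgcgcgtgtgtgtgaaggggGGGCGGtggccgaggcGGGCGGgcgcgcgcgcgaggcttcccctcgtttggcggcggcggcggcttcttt
The SMARCA2 window held 2 GC boxes and 1 ETS core, with a GC content of 66.7% and 30 CpG dinucleotides. The SMARCA4 window held 5 GC boxes and none of the other motifs, at 81.3% GC and 55 CpG dinucleotides. RefSeq windows were found for 34 of the 40 genes. A GC box was present in 29 of these 34 (85.3%), against 45.0% of all 35116 windows, and the YY1 core in 4 (CREBBP, DPF2, KMT2B and SMARCD1; 11.8%), against 1.20% of all windows. The CCAAT box was in 8 (23.5%, against 34.6%), the ETS core in 3 (8.82%, against 10.3%) and the E-box in 4 (11.8%, against 7.26%), and the NRF1 core (1.24% of all windows) and the cAMP response element (1.85%) in none. The median GC content was 70.3%, against 58.7% for all windows, and ranged from 37.7% for ARID1B to 88.7% for KMT2C. Members and all windows were not matched on gene type, expression or GC content, so the shares with a motif are not like for like.

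Of the 37 tested members 1, the ATPase gene SMARCA2, passed a Benjamini-Hochberg adjusted p of 0.05 in edgeR's quasi-likelihood test; it was lower in knockdown libraries, as were 0.649% of all genes tested. No member was called higher (0.137% of all genes). In either direction, 0.786% of all genes were called. The groups did not overlap in 13 members, 9 of them lower in knockdown (9.37% of all genes) and 4 higher (9.55%; 18.9% in either direction). An unadjusted p under 0.05 was reached by 9 members (14.3% of all genes), 6 of them lower (7.57%) and 3 higher (6.68%). Log2 fold changes ran from -0.36 to 0.39 with a median of -0.01, where the median of all genes was 0.02, and 21 of 37 members lay below 0, against 45.6% of all genes. The sign of the members' median was not stable: it was 0.01 with library size alone and 0.003 with upper-quartile scaling. The median of all genes moved with it, to 0.05 and 0.04. Members minus all genes was -0.033 in the main fit and -0.034 in both of these. Over all fits it ran from -0.0795 with no low-count filter to 0.0035 without knockdown library a. Without knockdown library b it was -0.0683. In bulk RNA, fewer cells that express a gene and less of its RNA per cell cannot be told apart.

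**Figure D1:**
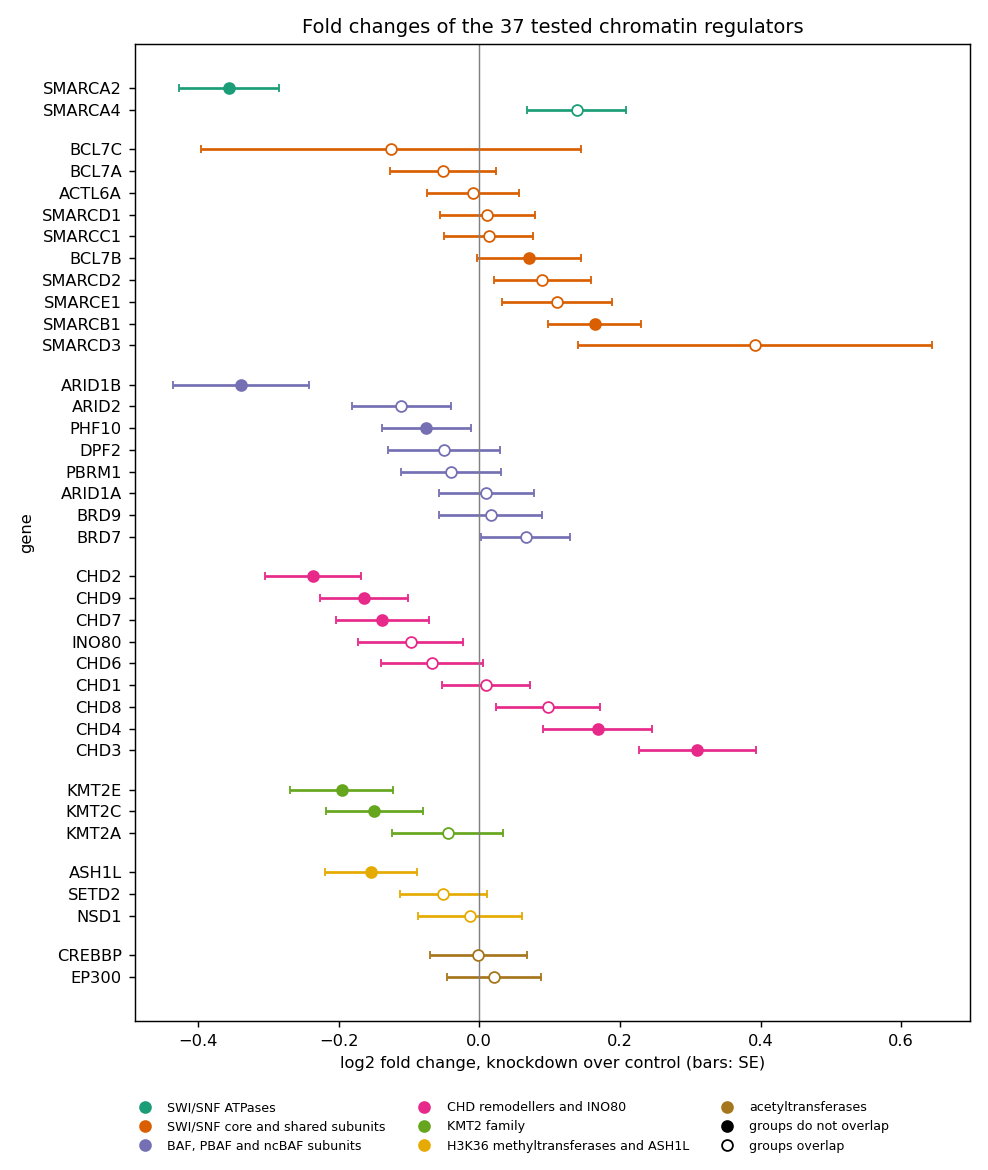
Log2 fold change (x axis, knockdown over control) with its standard error for each of the 37 tested members, grouped and coloured by role; filled points are genes whose 3 knockdown and 3 control values do not overlap. SMARCA2 at -0.36 is the member past the adjusted threshold.

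Values by library are listed in the order a, b, c within each group. The members took 0.709%, 0.731% and 0.716% of all counts in knockdown libraries, and 0.710%, 0.731% and 0.738% in control libraries. The means were 0.719 ± 0.0114% and 0.727 ± 0.0147% (SD, n = 3 each; difference -0.00796; exact permutation p = 0.40, two-sided, where 0.10 is the smallest this design allows).

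SMARCA2, one of the SWI/SNF motors, had 48.5, 46.7 and 50.2 CPM under knockdown against 59.2, 59.9 and 67.0 CPM in controls. All 3 knockdown values lay below all 3 control values, with control library c the highest. SMARCA2 fell by 21.9% (log2 fold change -0.36 ± 0.07, SE; edgeR adjusted p = 0.0423). The adjusted p was close to the threshold and the call was lost in 8 of 17 alternatives: with library size alone (edgeR adjusted p = 0.0669), with upper-quartile scaling (0.0618), with the trend on gene span removed (0.0540), and without knockdown library a (0.0865), knockdown library b (0.148), control library a (0.132), control library b (0.141) or control library c (0.279). The fold change itself stayed between -0.40 and -0.30 in all 17.

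SMARCA4, the other motor, had 404, 458 and 417 CPM under knockdown against 407, 377 and 378 CPM in controls. The groups overlapped through knockdown library a and control library a, and the log2 fold change was 0.14 ± 0.07 (SE; edgeR adjusted p = 0.402), or 0.08 without knockdown library b. Per kilobase of annotated exon, SMARCA4 was the more abundant motor by 7.36 times in control libraries (24.6 ± 1.08 against 3.34 ± 0.233 CPM per kb, SD, n = 3). Within each library, where scaling has no effect, the SMARCA4 to SMARCA2 count ratio was 8.33, 9.80 and 8.29 under knockdown against 6.88, 6.29 and 5.64 in controls. The groups did not overlap, and the knockdown ratio was 1.405 times the control ratio, a log2 difference of 0.49. The exact permutation p was 0.10, two-sided, the smallest possible, and 0.275 adjusted over 11 pairs.

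**Figure D2:**
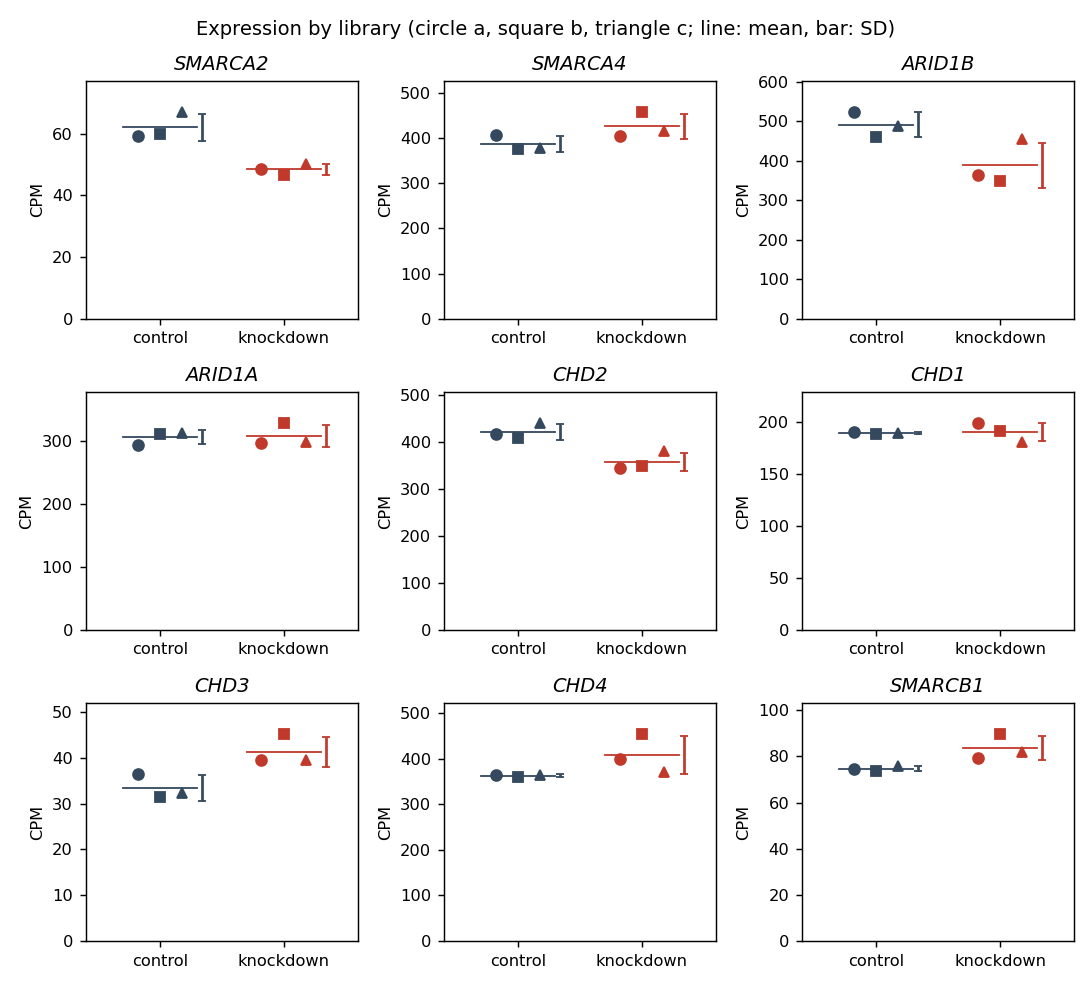
Expression in CPM (y axes from 0) of 9 members in each control and knockdown library, marked by library letter, with the group mean as a line and the SD as a bar beside it. SMARCA2, ARID1B and CHD2 lie lower in all 3 knockdown libraries, CHD3, CHD4 and SMARCB1 higher, and SMARCA4, ARID1A and CHD1 overlap.

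Of the 10 core and shared SWI/SNF subunits tested, 7 had a log2 fold change above 0 and none passed the adjusted threshold. SMARCB1, a core subunit and tumour suppressor, had 79.4, 89.6 and 82.1 CPM under knockdown against 74.7, 73.8 and 75.7 CPM in controls. No knockdown value fell within the control range, and library b was the highest (log2 fold change 0.16 ± 0.07, SE; edgeR adjusted p = 0.288). The difference was 0.11 without knockdown library b, and 0.05 (edgeR adjusted p = 0.860) with the trend on GC content removed. Exons of genes on the other strand cover 17.7% of the exon bases of SMARCB1, and the strand setting of the counting was not given in the sources used here. SMARCC1, the scaffold of the stem cell complex and the most abundant member per kilobase (79.3 ± 1.11 CPM per kb in control libraries), had 598, 636 and 602 CPM under knockdown against 597, 610 and 612 CPM in controls. Its values overlapped, at a log2 difference of 0.01 ± 0.06 (SE; edgeR adjusted p = 0.946). BCL7B also had groups that did not overlap, at 21.9 to 22.7 CPM in knockdown and 20.9 to 21.8 CPM in control libraries (log2 fold change 0.07 ± 0.07, SE; edgeR adjusted p = 0.714).

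Among the interchangeable SMARCD subunits, SMARCD1 stood at 29.5 ± 1.20 CPM per kb in control libraries, SMARCD2 at 13.5 ± 0.801 and SMARCD3 at 0.404 ± 0.106 (SD, n = 3). The order was the same when the longest coding transcript was used as the length. SMARCD3 had the largest fold change of the set, 0.39 ± 0.25 (SE; edgeR adjusted p = 0.516), but rested on 55 to 98 counts per library and its groups overlapped. The fold changes of SMARCD1, SMARCD2, SMARCE1, ACTL6A, BCL7A and BCL7C lay between -0.13 and 0.11, each with overlapping groups; BCL7C had 48 to 117 counts per library.

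ARID1B, a DNA-binding subunit of BAF that replaces ARID1A, had 363, 347 and 454 CPM under knockdown against 523, 461 and 488 CPM in controls. Knockdown and control values did not overlap, but knockdown library c came close to control library b. The log2 fold change was -0.34 ± 0.10 (SE; edgeR adjusted p = 0.141), similar in size to that of SMARCA2 with a wider spread. Without knockdown library c it was -0.49 (edgeR adjusted p = 0.00179), in a fit where 6.40% of all genes passed. Leaving out any other single library gave -0.39 to -0.27 (edgeR adjusted p 0.267 to 0.46).

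ARID1A had 297, 329 and 300 CPM under knockdown against 294, 311 and 314 CPM in controls, which overlapped (log2 fold change 0.01 ± 0.07, SE; edgeR adjusted p = 0.965). The ARID1A to ARID1B count ratio was 0.818, 0.947 and 0.660 in knockdown libraries and 0.561, 0.676 and 0.643 in control libraries. Knockdown library c lay within the control range (log2 difference 0.36, or 0.23 without knockdown library b; exact permutation p = 0.20, two-sided). Which of these genes was the more abundant per kilobase depended on the length used, with a control ratio of 1.75 by all annotated exons and 0.786 by the longest coding transcript.

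PHF10, a PBAF subunit that reads histone tails, had 65.8, 64.2 and 62.2 CPM under knockdown against 66.4, 70.0 and 66.04 CPM in controls. Knockdown values lay below the controls, but the highest knockdown and the lowest control value were nearly equal (log2 fold change -0.08 ± 0.06, SE; edgeR adjusted p = 0.636). It was -0.12 with the trend on span removed and -0.03 with that on GC content removed. The other PBAF subunits ARID2 (-0.11), PBRM1 (-0.04) and BRD7 (0.07), the BAF subunit DPF2 (-0.05) and the ncBAF bromodomain subunit BRD9 (0.02) had overlapping groups.

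CHD2, a chromatin remodeller that acts at active genes, had 344, 349 and 380 CPM under knockdown against 417, 408 and 440 CPM in controls. All knockdown values were lower (log2 fold change -0.24 ± 0.07, SE, edgeR adjusted p = 0.143). Without knockdown library c the CHD2 fold change was -0.30 (edgeR adjusted p = 0.00733). Leaving out any other single library gave -0.27 to -0.20 (edgeR adjusted p 0.284 to 0.511). CHD9 had 176, 187 and 191 CPM in knockdown and 203, 205 and 213 CPM in control libraries (-0.16 ± 0.06, SE; edgeR adjusted p = 0.268). CHD7, mutated in CHARGE syndrome, had 244, 268 and 243 CPM in knockdown and 271, 278 and 281 CPM in control libraries (-0.14 ± 0.07, SE; edgeR adjusted p = 0.369). In CHD7 and CHD9 too the groups did not overlap.

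CHD3 and CHD4, the NuRD motors, had values above the controls. CHD3 had 39.5, 45.2 and 39.4 CPM under knockdown against 36.6, 31.4 and 32.3 CPM in controls. Every knockdown value was above every control value, at a log2 difference of 0.31 ± 0.08 (SE; edgeR adjusted p = 0.119). CHD4, 8.34 times more abundant than CHD3 per kilobase of exon in control libraries, had 398, 454 and 372 CPM in knockdown and 364, 360 and 365 CPM in control libraries. Again without overlap, the control values were close together and knockdown library b was far above the rest (0.17 ± 0.08, SE; edgeR adjusted p = 0.350). Without knockdown library b the CHD4 difference was 0.08. Annotated genes on the same strand share 46.9% of the exon bases of CHD4, so its count depends on how shared reads were assigned. The CHD4 to CHD3 ratio overlapped between groups (log2 difference -0.14; exact permutation p = 0.30, two-sided). CHD1 (0.01), CHD6 (-0.07), CHD8 (0.10) and INO80 (-0.10) had overlapping groups.

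**Figure D3:**
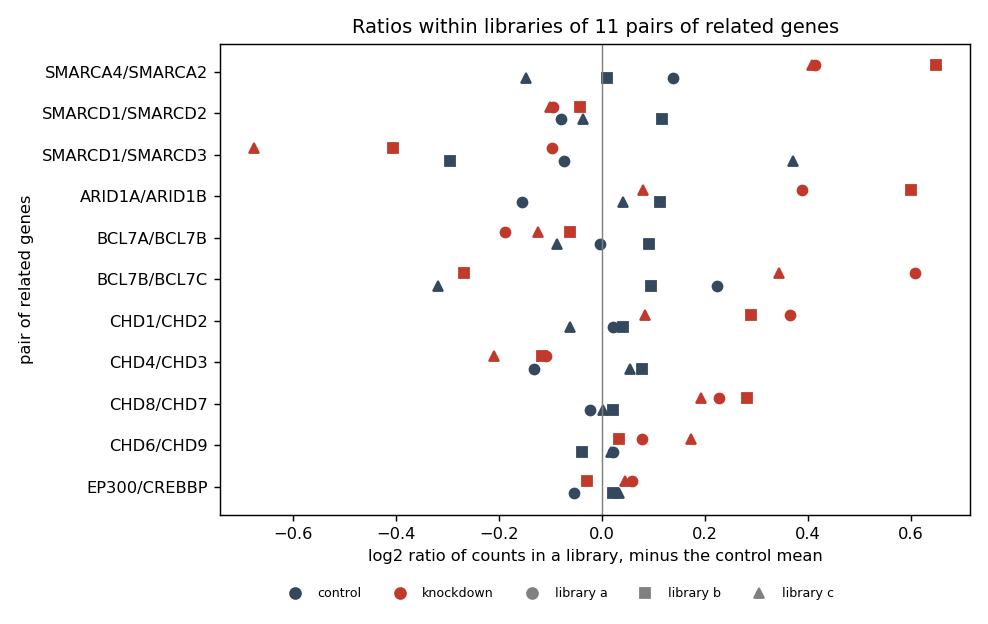
Log2 ratio of counts within a library (x axis) for 11 pairs of related genes, each set to 0 at its control mean; dark marks are control and red marks knockdown libraries, with the shape giving the library letter. The groups do not overlap for SMARCA4/SMARCA2, CHD1/CHD2, CHD8/CHD7 and CHD6/CHD9.

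Within-library ratios were computed for 11 pairs of related genes, and the groups did not overlap in 4. Beside the SWI/SNF motors these were CHD8 to CHD7, at 1.20, 1.25 and 1.17 in knockdown and 1.01, 1.04 and 1.03 in control libraries. The CHD1 to CHD2 ratio was 0.578, 0.549 and 0.475 in knockdown and 0.456, 0.462 and 0.430 in control libraries, and CHD6 to CHD9 1.27, 1.23 and 1.36 against 1.22, 1.17 and 1.22. Each had an exact permutation p of 0.10, two-sided, the smallest possible with 3 libraries against 3, and 0.275 adjusted over the 11 pairs. The second gene of each of the 4 pairs (SMARCA2, CHD7, CHD2 or CHD9) itself lay lower without overlap. The ratios therefore repeat part of those genes' values. The share of other gene pairs without overlap was not computed. Without knockdown library c the CHD6 to CHD9 difference fell from 0.09 to 0.06 on the log2 scale. The acetyltransferase ratio EP300 to CREBBP was the nearest to equal between groups (log2 difference 0.02; exact permutation p = 0.50, two-sided). The pairs with SMARCC2, KMT2B or KMT2D could not be computed.

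The KMT2 family members that could be matched all had a log2 fold change below 0, and none passed the adjusted threshold. KMT2E, a divergent family member, had 103, 111 and 120 CPM under knockdown against 120, 133 and 129 CPM in controls. The groups did not overlap, but knockdown library c and control library a were nearly equal; the log2 fold change was -0.20 ± 0.07 (SE; edgeR adjusted p = 0.254). KMT2C, an enhancer methyltransferase, had 263, 291 and 288 CPM in knockdown and 296, 313 and 326 CPM in control libraries (-0.15 ± 0.07, SE; edgeR adjusted p = 0.351), again without overlap. KMT2A, the enzyme rearranged in MLL leukaemia, overlapped between groups (-0.04 ± 0.08, SE; edgeR adjusted p = 0.842). The MLL2 row, which stands for KMT2D or KMT2B, had 233, 302 and 223 CPM in knockdown and 207, 223 and 235 CPM in control libraries. Knockdown library b was the one of its group that lay above the control range (0.19 ± 0.10, SE; edgeR adjusted p = 0.441).

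ASH1L, a histone methyltransferase of the trithorax group, had 161, 171 and 170 CPM under knockdown against 175, 192 and 191 CPM in controls. The groups did not overlap (log2 fold change -0.15 ± 0.07, SE; edgeR adjusted p = 0.312). NSD1 had 599, 655 and 587 CPM in knockdown and 573, 647 and 638 CPM in control libraries, and the groups overlapped (-0.01 ± 0.07, SE; edgeR adjusted p = 0.954). SETD2 was close to its control level (-0.05 ± 0.06, SE; edgeR adjusted p = 0.755). EP300 had 245, 261 and 243 CPM in knockdown and 231, 257 and 250 CPM in control libraries (0.02 ± 0.07, SE; edgeR adjusted p = 0.921), and CREBBP 237 to 268 and 241 to 255 CPM (-0.001 ± 0.07, SE; edgeR adjusted p = 0.996). The groups overlapped for both acetyltransferases.

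In the 9 members that lay lower without overlap, knockdown library c was the highest of its group in 5 and knockdown library a the lowest in 5. In the 4 that lay higher, knockdown library b was the highest in all 4. Without knockdown library c, 5 members passed the adjusted threshold, all of them lower (SMARCA2, ARID1B, CHD2, CHD9 and KMT2E; 6.40% of all genes passed in that fit). DESeq2's Wald test called 3 members, SMARCA2, ARID1B and CHD2, all lower (2.72% of all genes). The edgeR fit with no low-count filter called SMARCA2 and ARID1B lower and CHD3 higher (3.29% of all genes).

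Fold changes were also read against gene length. Span is the distance from a gene's annotated start to its end in GENCODE release 29, introns included, and the bands used here were chosen after the values were seen. Of 11 members spanning over 150 kb, 10 had a log2 fold change below 0, and the groups of 6 lay lower without overlap. CREBBP (-0.001) and NSD1 (-0.01) were among the 10. The count below 0 was 8 with library size alone, with upper-quartile scaling, without knockdown library a and without control library b. Without knockdown library b it was 11. The median of the 11 members was -0.14. All 2147 tested genes of that span had a median of -0.06, with 61.2% below 0 and 16.9% lower without overlap. Of 12 members under 50 kb, 8 lay above 0, with a median of 0.04. All 9679 tested genes of that span also had a median of 0.04, with 39.05% below 0. Fewer short members lay above 0 in some fits: 6 without knockdown library b, and 7 without knockdown library c or control library c. The number was 9 with library size alone, under upper-quartile scaling and without knockdown library a. Correction for GC content left 5 above 0 (median -0.0259), and correction for span left 6 (median 0.0023). Across the 37 members, Spearman's rho between span and log2 fold change was -0.62, and across the 15925 tested genes with a span it was -0.17. The SD of log2 fold changes was 0.15 over the members and 0.30 over all 19721 genes tested. Here and in the shares without overlap, members and all genes were not matched on depth, so the comparisons are not like for like. Genes within a library share its depth and scaling and are not independent.

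SMARCA2 spans 213 kb and ARID1B 435 kb, against 119 kb for SMARCA4 and 88.9 kb for ARID1A. CHD3 (28.0 kb) and CHD4 (44.4 kb) are among the short members. GC content moved with the fold change as well: rho with the GC content of the longest transcript was 0.41 over the 37 members and 0.30 over all genes. Span and GC content were themselves related over the 37 members (rho -0.30), so these are not separate associations. With each library's trend on span removed, 8 of the 11 long members were below 0, with a median of -0.09. SMARCA2 was then at -0.32 (edgeR adjusted p = 0.0540), ARID1B at -0.26 (0.237), KMT2C at -0.09 and CHD3 at 0.27. These fits hold only the 15925 annotated genes. On those genes with no trend removed, a fit added after seeing the data, SMARCA2 was at -0.36 (edgeR adjusted p = 0.0349) and ARID1B at -0.34 (0.115). With the GC trend removed, SMARCA2 was at -0.33 (edgeR adjusted p = 0.0420) and ARID1B at -0.41 (0.0502). In the same fit SMARCA4 was at 0.02, SMARCB1 at 0.05 and CHD3 at 0.22. Of the 11 long members, 10 were below 0 in that fit, with a median of -0.12. The part of span or GC content in these differences was not tested further.

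**Figure D4:**
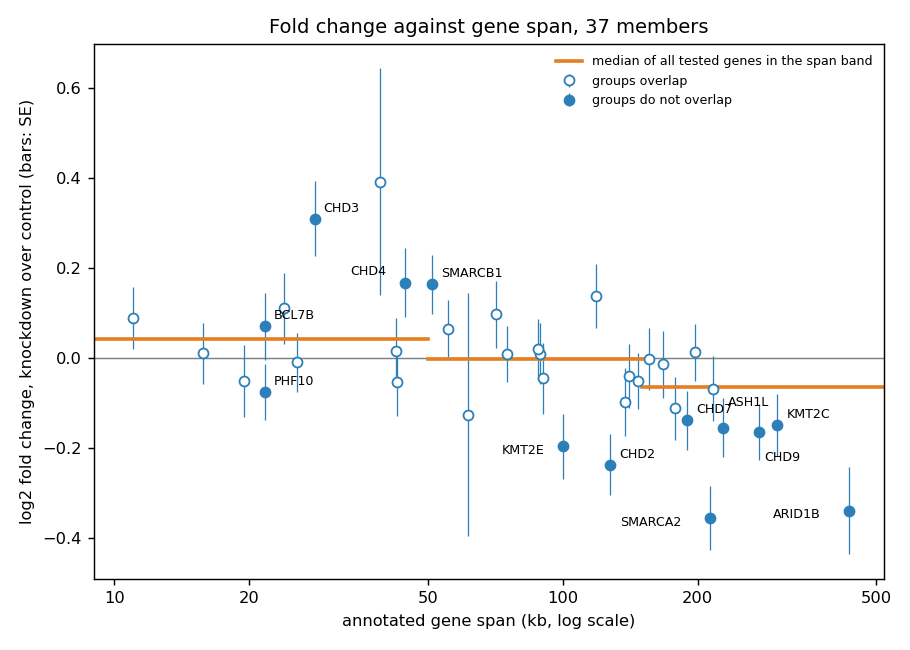
Log2 fold change with its standard error (y axis) against annotated gene span in kb (x axis, log scale) for the 37 tested members; named, filled points are genes whose groups do not overlap, and orange lines are medians of all tested genes under 50 kb, from 50 to 150 kb and over 150 kb. Of the 11 members over 150 kb, 10 lie below 0, with CREBBP (-0.001) and NSD1 (-0.01) close to it.

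Partners of these enzymes were read from 6 lists of 89 further genes, of which 84 were tested and none passed the adjusted threshold. At an unadjusted p under 0.05 there were 6 higher and 5 lower, 13.1% of the 84 against 14.3% of all genes. DESeq2's Wald test called 3 (3.57%, against 2.72% of all genes), BAZ2A higher and KDM4C and BAZ2B lower. The edgeR fit with no low-count filter called 6 (7.14%, against 3.29%), adding KDM6A, SMYD3 and TRRAP, all lower. Without knockdown library c, 7 were called (8.33%, against 6.40%), BAZ2A higher and BAZ2B, EPC2, KDM4C, KDM6A, MTA3 and SMYD3 lower; EPC2, MTA3 and SMYD3 are named after their values were seen. Over 13 NuRD partners the median log2 fold change was 0.07, with 8 above 0. The deacetylase HDAC1 had groups that did not overlap, 119 to 126 CPM in knockdown and 109 to 114 CPM in control libraries (0.14 ± 0.06, SE; edgeR adjusted p = 0.325), and MBD3 (0.16) and GATAD2B (-0.11) overlapped. MBD3 was at 0.06 without knockdown library c and at 0.24 without knockdown library a, and GATAD2B at -0.06 without knockdown library a and at -0.07 without control library b. Over 15 COMPASS and MLL partners the median was 0.03, with the demethylase KDM6A lowest at -0.26 ± 0.10 (SE; edgeR adjusted p = 0.266), CXXC1 at 0.15 and HCFC1 at 0.13. The groups overlapped for KDM6A, which was at -0.41 without knockdown library c and at -0.31 to -0.19 without any other single library. Without knockdown library b CXXC1 was at 0.09 and HCFC1 at 0.03. Over 25 subunits of INO80, SRCAP and TIP60 complexes the median was -0.001, with the ATPase RUVBL1 at 0.17 and MCRS1 at 0.15. The scaffold TRRAP was at -0.25 ± 0.09 (SE, edgeR adjusted p = 0.209), with overlapping groups. With the trend on GC content removed, MBD3 was at 0.04, CXXC1 at 0.03, HCFC1 at 0.0061 and MCRS1 at 0.04; with that on span removed, CXXC1 was at 0.08, HCFC1 at 0.08 and MCRS1 at 0.09.

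Over 11 genes of ISWI complexes, a further family of remodellers, the median was 0.04. BAZ2A, the subunit of the nucleolar remodelling complex that silences rRNA genes, had 227 ± 26.8 CPM in knockdown and 186 ± 7.73 CPM in control libraries (SD, n = 3 each; log2 fold change 0.28 ± 0.08, SE; edgeR adjusted p = 0.153), or 0.19 without knockdown library b. Its relative BAZ2B went the other way, with 190 ± 24.4 against 232 ± 2.06 CPM (-0.29 ± 0.08, SE; edgeR adjusted p = 0.148), and RSF1 was at -0.09 (-0.05 with the trend on GC content removed). In all 3 genes the groups did not overlap. Over 14 other enzymes of the H3K4 and H3K36 marks the median was 0.02. KDM4C, a histone demethylase, had the smallest p of the 84, with 137 ± 18.1 against 182 ± 10.4 CPM (-0.41 ± 0.09, SE; edgeR adjusted p = 0.0626). It passed in 6 of 17 alternatives, among them limma-voom (adjusted p = 0.0438). SETD7 was at -0.21 and KDM1A at 0.35. Over 6 other SWI/SNF subunits the median was -0.02, with ACTB at 0.06 and BICRAL at -0.04. DPF3 had 6.24, 3.18 and 4.19 CPM under knockdown against 3.13, 2.83 and 3.25 CPM in controls, a log2 difference of 0.56 ± 0.23 (SE; edgeR adjusted p = 0.300). Its highest value was in knockdown library a, the library that stood apart, and without it the difference was 0.25.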

How the data were processed

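RNA was sequenced from 3 knockdown and 3 control libraries of H9 cells, 48 h after transfection. The authors deposited raw read counts per gene. The submitters' processing notes name Trimmomatic 0.39, STAR 2.7.8a, featureCounts, Subread 2.14.2 and build hg38, without giving their roles; the annotation, strand setting and treatment of shared reads were not given in the sources used here.

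Counts of all genes were fitted with edgeR 4.0.16 in R 4.3.3 (default low-count filter, TMM scaling, quasi-likelihood test on group alone), with Benjamini-Hochberg adjustment over the 19721 genes tested and a threshold of 0.05. The SE is the log2 fold change divided by the root of the F statistic. CPM are on TMM-scaled library sizes, and values per kb divide them by annotated exon length. Ratios between related genes used 0.5 added counts and exact permutation tests (SciPy 1.17.1). Span, length and GC content came from GENCODE release 29, with span and GC content for 80.8% of tested genes, and promoters from RefSeq GRCh38.p14.

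The members, gene lists and tests were chosen with earlier results of these data known. Values are given in full for members past the threshold and the 12 non-overlapping members of smallest p. They are also given for the most abundant member per kilobase of annotated exon in each role. By the longest coding transcript that would be BRD9 in place of ARID1A and KMT2E in place of KMT2C. In each other list the 3 genes of smallest p are named, many of them by log2 fold change alone. Further genes were chosen after their values were seen. Alternatives were DESeq2 1.42.0, limma-voom (limma 3.58.1), other scalings and filters, a replicate block, offsets for span or GC content (splines with 5 degrees of freedom, on the annotated genes), those genes with no offset (added after seeing the data), and leaving out each library.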

Additional observations from a re-analysis of the deposited data

How the results depend on the processing

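Of 595 values of the 35 named genes under 17 alternatives, 547 kept their sign and their side of the threshold, 8 lost and 24 gained a call, and 16 changed sign. The number of genes called, 155, was 1064 with no low-count filter, 393 with the replicate block, 242 with the span trend removed, 239 with the GC trend removed, 536 with DESeq2's Wald test and 26 (without control library a) to 1309 (without knockdown library c) leaving out 1 library. The trend fits test 15925 genes; on those with no trend removed, an alternative chosen after seeing the data, 160 genes and 1 member, SMARCA2, were called. The number of members called, 1, was 0 with library size alone, 0 with upper-quartile scaling, 0 with the span trend removed, 3 with no filter, 3 with DESeq2's Wald test and 0 to 5 leaving out 1 library. The members' median log2 fold change was -0.0626 to 0.0022 leaving out 1 library.

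Sign changes were in genes close to 0. NSD1 was at 0.0128 with library size alone, 0.0032 with upper-quartile scaling, 0.0089 with the span trend removed. ARID1A was at -0.0013 with the span trend and -0.0945 with the GC trend removed, EP300 at -0.0294 and ACTB at -0.0185 with the GC trend removed. Leaving out 1 library, the log2 fold change was -0.0693 to 0.0129 for NSD1, -0.045 to 0.0354 for ARID1A, -0.019 to 0.0473 for EP300, -0.0207 to 0.0276 for SMARCC1 and -0.0037 to 0.1115 for ACTB, and the EP300 to CREBBP log2 ratio differed by -0.0022 to 0.0511. The cause was not tested.

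Whether the replicate letters pair the libraries was not settled. Correlations of deviations were 1.23e-05, 0.116 and -0.0251, and 1 of 3 knockdown libraries correlated best with its own letter. With 3 libraries a group these values cannot exclude a pairing. With the replicate block 393 genes were called, against 155 without it, and 2 members, SMARCA2 and ARID1B. The ratios with SMARCC2, KMT2B or KMT2D were not run. With 3 libraries a group, exact tests cannot go below 0.10, and SMARCD3 and BCL7C are limited by depth.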
